A study of Rattus norvegicus with 16 samples.

Results

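The genes described here make and sense prostaglandins in the dorsal root ganglion (DRG), which holds the cell bodies of sensory neurons. They are 10 of the 21021 genes listed: the phospholipases Pla2g2a and Pla2g4a, the cyclooxygenases Ptgs1 and Ptgs2, the synthases Ptges, Ptgds and Hpgds, and the receptors Ptger3, Ptger4 and Ptgir. They were found by gene symbol, and the group was chosen by a measured value, the difference of Pla2g2a between days 7 and 14, so that contrast is a description here, with no test for any member. RNA was sequenced from lumbar DRGs of adult female Sprague-Dawley rats on the side of tumor cell implantation (TCI), in which Walker 256 mammary carcinoma cells were injected into the left tibia. Rats were sampled 1, 7 or 14 days after TCI, and sham rats were sampled on day 14 only, with 4 samples in each of the 4 groups and 1 animal per sample. Day 1 and day 7 therefore differ from sham in time since surgery as well as in tumor, and the effects cannot be told apart. The labels say that sham rats received PBS, whereas the methods of the study describe boiled tumor cells. Following the study, sample 2 of day 1 and sample 3 of day 7 were left out of the fit, which leaves 14 samples; their values are given with the members.

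Prostaglandins are made when a phospholipase A2 frees arachidonic acid from membranes, a cyclooxygenase turns it into an unstable intermediate, and a terminal synthase makes the final product. Prostaglandin E acts on the Ptger receptors and prostacyclin on Ptgir, and both are known to sensitize nociceptors. Nonsteroidal anti-inflammatory drugs block the cyclooxygenases.

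The DRG label fits the markers: all 15 sensory neuron markers were measured, with summed values of 18166 to 19111 FPKM (fragments scaled to transcript length and library size, a level per length) in sham. The sums were lower on day 7, at 15453 to 16148, without overlap, and 15072 to 17951 on day 14, where 5 and 4 of these markers fell. Fibroblast markers summed to 410 to 586 FPKM in sham, 948 to 1199 on day 7 and, more widely, 328 to 954 on day 14, where 3 and 1 of 7 rose. Macrophage markers summed to 69.5 to 133 FPKM in sham, 93.8 to 112 on day 1, 940 to 1259 on day 7, with 526 to 1828 on day 14. Of these markers, 15 of 15 were higher than in sham on day 7 and 13 on day 14. T cell markers summed to 5.85 to 8.68 FPKM in sham, 43.0 to 101 on day 7, with 35.1 to 103 on day 14. Skeletal muscle markers stood out in the left-out day 7 sample (19625 FPKM) and in sham sample 4 (467.5 FPKM), against 8.85 to 19.7 FPKM in the other samples of the fit. FPKM is scaled to library size, so in whole ganglia fewer cells of a type, less RNA per cell and more RNA from other cells cannot be told apart. The part of these cells in the results below was not tested.

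**Figure D1:**
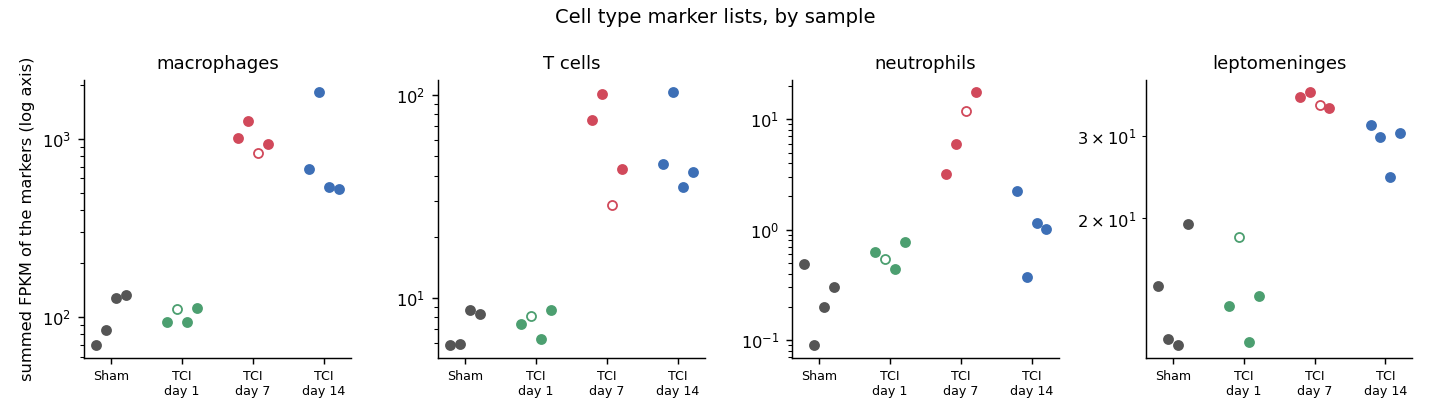
Summed FPKM of 4 marker lists on a log axis for each sample, by group, with the 2 left-out samples as open circles. Macrophage and T cell sums on days 7 and 14 lie above every sham and day 1 sample, and neutrophil sums are highest on day 7.

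On day 7, Ptgs1 and Ptges rose against sham, and so did Pla2g4a, which entered the fit through its high samples and is given below with a fit that has no filter. On day 14 only Ptgs1 passed the test among the 7 members tested. Across all 14023 genes in the fit, 14.5% were higher than sham on day 7 and 11.9% on day 14 (limma, Benjamini-Hochberg adjusted p of at most 0.05), so 3 and 1 members, the former with Pla2g4a, are to be read against those shares and support nothing as counts. In the main fit none of the 7 met the study's stricter cut-offs (adjusted p of at most 0.001 and a log2 difference of at least 1). In the higher direction 1.83% and 0.642% of genes met them on days 7 and 14. The study applied them to fold changes from its own method, whereas the differences here are of log2(FPKM + 1). That scale understates changes of low genes, so the 2 measures are not alike. No receptor of the group passed the test. On day 1, 0 of 14023 genes were called (0%), while 734 (5.23%) had a raw p under 0.05, no member among them; their log2 differences ran from -0.35 to 0.08 with a lowest adjusted p of 0.979 (limma).

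**Figure D2:**
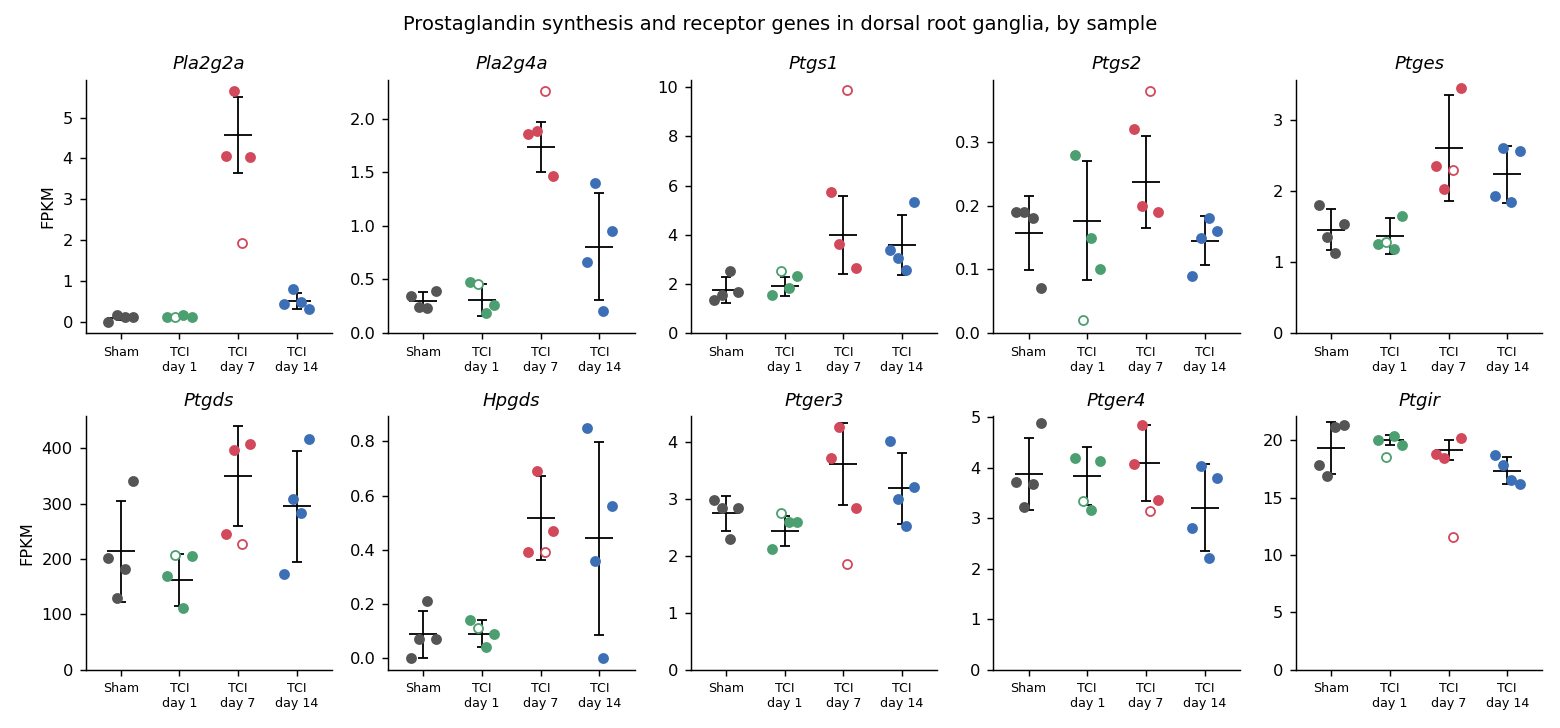
FPKM of the 10 members in every sample, by group, with filled circles for the samples in the fit, open circles for the left-out samples, and the mean with its SD over the samples in the fit. Pla2g2a lies between 4.04 and 5.65 FPKM on day 7 and between 0.31 and 0.79 on day 14, whereas Ptgir shows overlapping values in sham and on day 7.

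The start regions of Pla2g2a and of the 3 members that rose on day 7 are shown, since these genes carry the results. Each runs from 250 bases before to 50 after the RefSeq start in the GRCr8 build, 5′ to 3′, and capitals mark every match to 10 short motifs searched on both strands.
Pla2g2a (chr5:156359475-156359774, plus strand): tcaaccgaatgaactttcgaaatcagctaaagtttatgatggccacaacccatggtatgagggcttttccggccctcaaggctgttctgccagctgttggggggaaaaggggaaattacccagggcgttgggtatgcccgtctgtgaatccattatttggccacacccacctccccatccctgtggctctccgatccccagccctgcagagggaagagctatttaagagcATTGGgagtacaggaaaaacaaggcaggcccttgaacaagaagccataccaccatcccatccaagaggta
Pla2g4a (chr13:64572303-64572602, minus strand): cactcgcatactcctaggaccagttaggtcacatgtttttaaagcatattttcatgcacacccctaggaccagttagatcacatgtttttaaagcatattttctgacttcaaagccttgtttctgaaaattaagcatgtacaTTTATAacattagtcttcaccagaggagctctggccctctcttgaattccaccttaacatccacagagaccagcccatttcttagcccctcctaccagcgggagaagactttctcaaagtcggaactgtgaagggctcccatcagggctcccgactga
Ptgs1 (chr3:39981169-39981468, plus strand): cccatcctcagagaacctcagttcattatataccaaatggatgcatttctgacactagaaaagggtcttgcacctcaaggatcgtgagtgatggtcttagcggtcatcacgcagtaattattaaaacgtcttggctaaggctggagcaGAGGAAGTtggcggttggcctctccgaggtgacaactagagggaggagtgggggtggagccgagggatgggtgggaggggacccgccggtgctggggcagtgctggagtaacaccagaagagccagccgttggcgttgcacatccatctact
Ptges (chr3:34586938-34587237, minus strand): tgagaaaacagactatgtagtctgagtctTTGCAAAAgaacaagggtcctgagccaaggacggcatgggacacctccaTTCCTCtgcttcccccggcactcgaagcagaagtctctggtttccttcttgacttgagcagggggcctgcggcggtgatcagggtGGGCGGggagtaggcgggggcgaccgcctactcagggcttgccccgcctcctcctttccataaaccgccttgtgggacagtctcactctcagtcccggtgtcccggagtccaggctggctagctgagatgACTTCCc
The motifs were TATAAA (the TATA box), CCAAT (its namesake box), GGGCGG (the GC box), TTCNNNGAA (STAT), TTGCNNAA (C/EBP), GAGGAA (PU.1), GGAAGT (the ETS core, which can overlap the PU.1 motif), TGACTCA (AP-1), TGACGTCA (CRE) and the NF-kB motif. This set and its spellings were settled after a first search of the members. Pla2g2a held only CCAAT, Pla2g4a only TATAAA, Ptgs1 the overlapping PU.1 and ETS motifs, and Ptges the GC box, C/EBP, PU.1 and ETS motifs. Among all 33469 start regions of this length, CCAAT occurs in 37.5%, TATAAA in 14.2%, GGGCGG in 33.1%, TTGCNNAA in 10.6%, GAGGAA in 27.6% and GGAAGT in 22.6%. The STAT, AP-1, CRE and NF-kB motifs, present in 8.87%, 4.63%, 1.83% and 4.18% of start regions, had no match in these 4 windows. A match is a run of letters and not a known site, and no motif was common to all 4 genes.

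Pla2g2a encodes a secreted phospholipase A2 that is induced in inflammation. Its level in sham was 0.00, 0.15, 0.11 and 0.12 FPKM, and on day 1 it was 0.11, 0.15 and 0.10 FPKM. On day 7 it was 4.05, 5.65 and 4.04 FPKM, and on day 14 it was 0.43, 0.79, 0.48 and 0.31 FPKM. The day 7 samples were all far above the rest, and the day 14 samples lay above every sham sample and below every day 7 sample. The left-out day 7 sample, at 1.92 FPKM, also lay between day 14 and the other day 7 samples. Mean levels were 0.0950 ± 0.0656 FPKM in sham (SD, n = 4), 4.58 ± 0.927 on day 7 (n = 3) and 0.502 ± 0.205 on day 14 (n = 4). The difference in mean log2(FPKM + 1), a scale that understates changes of low genes, was 2.34 (SE 0.125) for day 7 against sham and -1.89 (SE 0.125) for day 14 against day 7. With all 16 samples the latter was -1.66. It passed the filter (at least 1 FPKM in at least 3 samples) only through day 7, so its presence in the fit is no result. Day 1 against sham, the only contrast outside the choice of members, gave 0.03 (SE 0.125, adjusted p = 0.999, limma).

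The genes whose pattern was most like that of Pla2g2a over the 14 samples were Gzma (r = 0.988), Csf3r (r = 0.955) and Msr1 (r = 0.945), by Pearson correlation of log2(FPKM + 1). They encode a granzyme of cytotoxic lymphocytes, the granulocyte colony-stimulating factor receptor and a macrophage scavenger receptor. The samples of a group share their day, so these values are descriptions. Neutrophil markers, of which 5 of 7 stayed under 0.5 FPKM in every sample of the fit while S100a8 and S100a9 carried the sum, added up to 0.0900 to 0.490 FPKM in sham, 3.21 to 17.6 on day 7, with 0.370 to 2.26 on day 14.

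Pla2g4a encodes the cytosolic phospholipase A2 that releases arachidonic acid for the cyclooxygenases. It was at 0.35, 0.24, 0.23 and 0.39 FPKM in sham and at 0.48, 0.19 and 0.26 FPKM on day 1. On day 7 it was at 1.86, 1.89 and 1.47 FPKM, and on day 14 at 0.66, 1.40, 0.21 and 0.95 FPKM. All day 7 samples lay above sham, whereas on day 14 sample 3 lay below every sham sample and the other 3 above. The log2 difference on day 7 was 1.07 (SE 0.182, adjusted p = 0.0015, limma), and the left-out day 7 sample was at 2.26 FPKM. On day 14 it was 0.43 (SE 0.169, adjusted p = 0.107, limma), and without day 14 sample 3 it was 0.61 with an adjusted p of 0.0078. Day 7 also exceeded day 1, by 1.07 (SE 0.195, adjusted p = 0.0038, limma), where 9.02% of all genes were called higher. Only the day 7 samples and day 14 sample 2 reached the 1 FPKM minimum, so it too entered the fit through the group where it is high, and the filter favoured a call. In the fit of 20571 genes with no filter the adjusted p was 0.00224 for day 7 against sham and 0.00569 for day 7 against day 1 (limma). Its closest genes by pattern were Filip1l (r = 0.981), Tmod3 (r = 0.979) and Dse (r = 0.971).

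Ptgs1 encodes cyclooxygenase-1, which is expressed in many tissues at rest. Its level was 1.33, 1.53, 2.51 and 1.66 FPKM in sham and 1.55, 1.85 and 2.31 FPKM on day 1. It was 5.72, 3.62 and 2.64 FPKM on day 7 and 3.39, 3.04, 2.58 and 5.32 FPKM on day 14. Every day 7 and day 14 sample lay above every sham sample, the lowest of them only just. The log2 difference was 0.83 on day 7 (SE 0.223, adjusted p = 0.0209) and 0.72 on day 14 (SE 0.206, adjusted p = 0.0336, limma). The left-out day 7 sample held the highest value, 9.87 FPKM. Both calls rest on single samples. On day 7 the adjusted p (limma) was 0.104 without day 7 sample 1, 0.0515 without day 7 sample 2, 0.0600 without sham sample 1 and 0.0535 without sham sample 2. On day 14 it was 0.0543 and 0.0757 without day 14 samples 1 and 4, and 0.0961, 0.0851 and 0.0705 without sham samples 1, 2 and 4. Against day 1, Ptgs1 was not called on day 7 (0.74, adjusted p = 0.0667) or day 14 (0.63, adjusted p = 0.110, limma). On the day 7 contrast the adjusted p was 0.0308 without day 7 sample 4 and 0.0404 without day 14 sample 4. Its closest genes by pattern were Cfd (r = 0.925), Rdh10 (r = 0.921) and Pltp (r = 0.917).

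Ptgs2, which encodes the inducible cyclooxygenase-2, was low in every sample and under the filter. It was at 0.19, 0.19, 0.18 and 0.07 FPKM in sham, 0.28, 0.15 and 0.10 on day 1, 0.32, 0.20 and 0.19 on day 7, and 0.09, 0.15, 0.18 and 0.16 on day 14. Every group overlapped sham or shared its highest value (0.19 FPKM), while all day 14 samples lay below all day 7 samples. The two-sided exact permutation test gave p = 0.171 for day 7, p = 0.629 for day 14 and p = 0.8 for day 1 against sham, where the smallest possible p is 0.0286. In the RefSeq annotation Pla2g4a and Ptgs2 are adjacent protein-coding genes on chromosome 13, and the former rose on day 7 while the latter gave a log2 difference of 0.10. The scale understates changes of genes as low as Ptgs2. Under the other settings tried its day 7 difference was 0.14 to 0.40 (exact permutation p = 0.0857 to 0.171). Whether the 2 genes differ in their change was not tested.

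**Figure D3:**
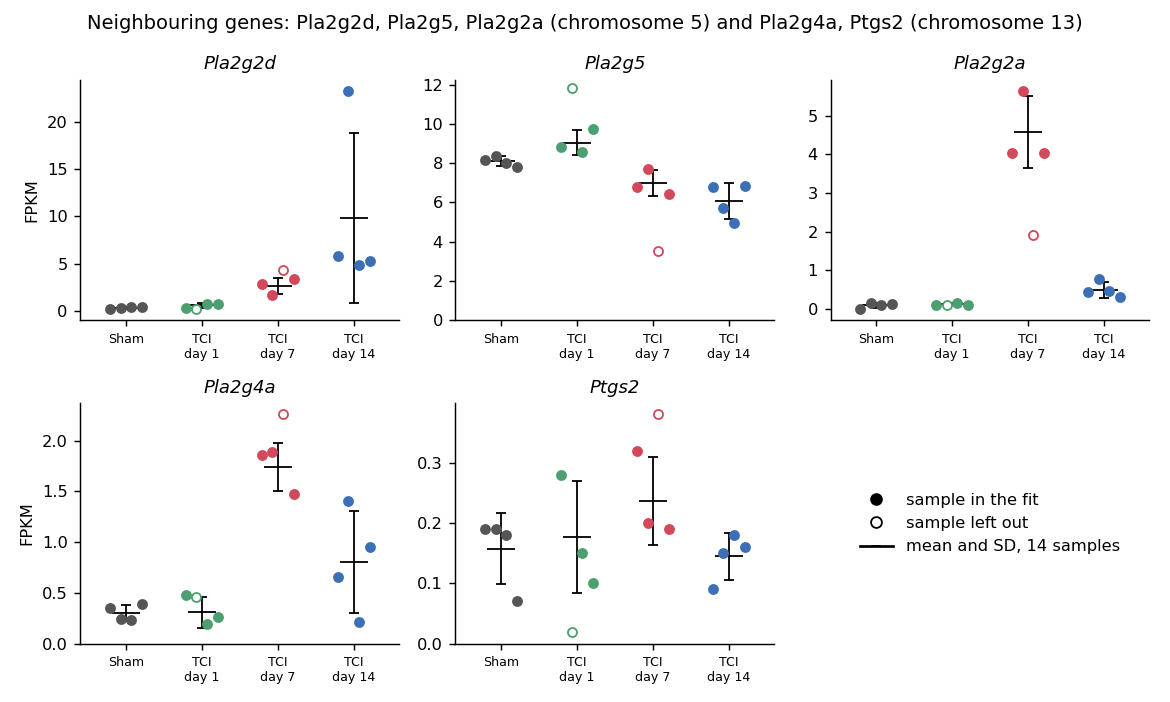
FPKM in every sample of Pla2g2d, Pla2g5 and Pla2g2a, which lie side by side on chromosome 5, and of the adjacent Pla2g4a and Ptgs2 on chromosome 13; open circles are left-out samples and bars give the mean and SD of the samples in the fit. Pla2g2a is highest on day 7, Pla2g2d on day 14, and Pla2g5 runs lower on day 14 than in sham.

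Ptges encodes the inducible prostaglandin E synthase. Its level was 1.80, 1.35, 1.13 and 1.54 FPKM in sham and 1.25, 1.19 and 1.65 FPKM on day 1. It was 2.35, 2.03 and 3.45 FPKM on day 7 and 1.93, 2.61, 1.85 and 2.56 FPKM on day 14, so neither day overlapped sham. The log2 difference was 0.54 on day 7 (SE 0.144, adjusted p = 0.0195, limma). On day 14 it was 0.40 (SE 0.134, adjusted p = 0.0629, limma), short of the threshold; it passed without day 14 sample 3 (0.0441) or day 7 sample 4 (0.0334). The day 7 call was lost without day 7 sample 4 (adjusted p = 0.0909) or sham sample 3 (0.0555), and quantile normalization also ended it (0.141). Day 7 exceeded day 1 by 0.60 (SE 0.154, adjusted p = 0.0257, limma), which was lost without day 1 sample 1 (0.0878) or 3 (0.0960), or day 7 sample 1 (0.0549) or 4 (0.0902). Day 14 against day 1 gave 0.45 (adjusted p = 0.0792, limma) in a contrast where 5.9% of genes were called higher, and 0.0467 without day 7 sample 4. Genes close to it by pattern included Rpl39 (r = 0.897), which encodes a ribosomal protein, and Tpt1 (r = 0.895).

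Ptgds, which encodes the lipocalin-type prostaglandin D synthase, was the most abundant member. It ranged from 129 to 341 FPKM in sham, from 111 to 205 on day 1, from 245 to 409 on day 7 and from 173 to 416 on day 14. Days 7 and 14 overlapped sham, day 7 lay above day 1 in every sample, and the left-out samples were at 207.9 FPKM (day 1) and 227.6 FPKM (day 7). The log2 differences from sham were 0.76 on day 7 (SE 0.341, adjusted p = 0.148) and 0.49 on day 14 (SE 0.316, adjusted p = 0.330, limma). Against day 1 the day 7 difference was 1.12 (SE 0.365, adjusted p = 0.0723, limma). Without sham sample 4, the highest of sham, the adjusted p was 0.0471 (limma). The difference stayed at 1.12, as this contrast holds no sham sample, and only the shared estimate of the spread and the adjustment changed. Ptgds is also made by the leptomeninges, whose other markers summed to 10.7 to 19.5 FPKM in sham, 34.4 to 37.2 on day 7, with 24.5 to 31.7 on day 14; 6 of 7 were higher on both days; their part in the Ptgds level was not tested.

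Hpgds, which encodes the hematopoietic prostaglandin D synthase, was under the filter. It was at 0.00, 0.07, 0.21 and 0.07 FPKM in sham, 0.14, 0.04 and 0.09 on day 1, 0.39, 0.69 and 0.47 on day 7, and 0.85, 0.36, 0.00 and 0.56 on day 14. Day 7 lay above sham in every sample. The exact permutation test gave p = 0.0286 for day 7 against sham, the smallest it can give, and p = 0.143 for day 14, where sample 3 was listed at 0. These are raw values from 10 such tests, and with a pseudocount of 0.1 the day 7 p was 0.0571.

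None of the 3 receptor members passed the test on any day. Ptgir, which encodes the prostacyclin receptor, was the most abundant receptor of the group, at 16.9 to 21.4 FPKM in sham, 19.6 to 20.4 on day 1, 18.5 to 20.2 on day 7, with 16.2 to 18.8 on day 14. The left-out day 7 sample, with its muscle transcripts, was at 11.58 FPKM, below every other sample. The log2 difference of Ptgir from sham was -0.01 on day 7 (SE 0.078, adjusted p = 0.969) and -0.14 on day 14 (SE 0.072, adjusted p = 0.202, limma). Ptger4, an E receptor that raises cyclic AMP, ranged from 3.22 to 4.88 FPKM in sham, 3.36 to 4.85 on day 7, with 2.21 to 4.03 on day 14, giving differences of 0.07 (adjusted p = 0.83) and -0.22 (adjusted p = 0.356, limma). Ptger3, an E receptor that lowers cyclic AMP, ranged from 2.30 to 2.98 FPKM in sham, 2.84 to 4.26 on day 7, with 2.52 to 4.01 on day 14, giving differences of 0.29 (adjusted p = 0.141) and 0.15 (adjusted p = 0.420, limma). The left-out day 7 sample lay below every sham sample for Ptger4 (3.15 FPKM) and Ptger3 (1.86 FPKM) as well, and with all 16 samples the day 7 difference was -0.18 for Ptgir and 0.12 for Ptger3, neither past the test. For Ptger3, day 7 against day 1 gave 0.41 (adjusted p = 0.0760, limma), and 0.0301 without day 7 sample 4 or 0.0464 without day 14 sample 3. The genes closest by pattern were Cd81 (r = 0.806) for Ptgir, Pola1 (r = 0.863) for Ptger4, Med12 (r = 0.950) for Ptger3 and Med18 (r = 0.919) for Ptgds.

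In sham, mean levels ran from Ptgds (214 FPKM) and Ptgir (19.3 FPKM) through Ptger4 (3.87), Ptger3 (2.74), Ptgs1 (1.76), Ptges (1.46) and Pla2g4a (0.302) to Ptgs2 (0.158), Pla2g2a (0.0950) and Hpgds (0.0875). The sham ranges of Ptger3 and Ptgs1, of Ptgs1 and Ptges, and of the last 3 genes in turn overlapped, and these neighbours in the order are not separated by their spread.

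**Figure D4:**
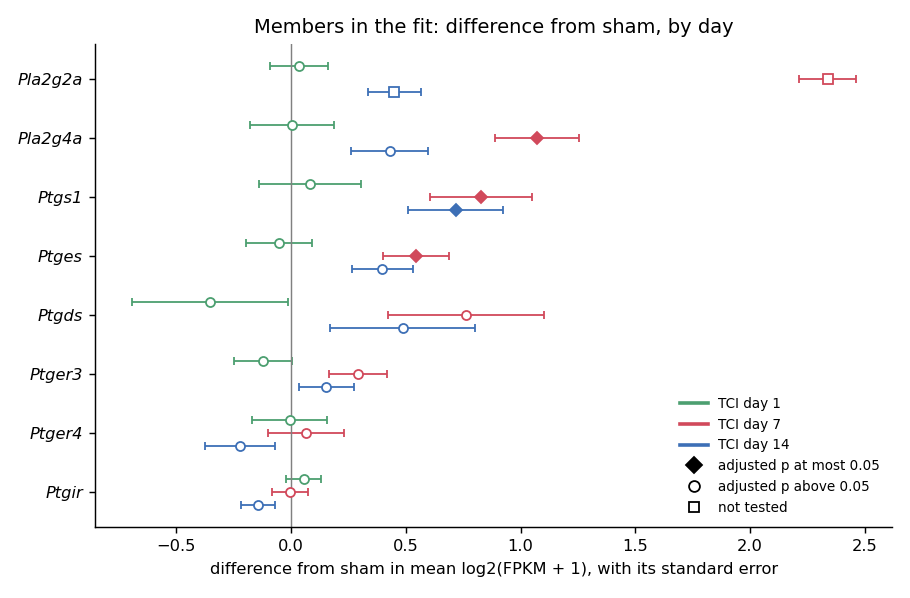
Difference from sham in mean log2(FPKM + 1), with its standard error, for the 8 members in the fit on days 1, 7 and 14. Filled diamonds mark an adjusted p of at most 0.05 (Pla2g4a, Ptgs1 and Ptges on day 7, Ptgs1 on day 14), open circles an adjusted p above it, and open squares values with no test.

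Of 46 other listed genes of the eicosanoid pathways, 31 were in the fit, and 9 were higher and 1 lower on day 7, against 14.5% and 3.45% of all genes. On day 14, 4 were higher and 3 lower, against 11.9% and 3.21%. The median log2 difference was 0.08 on day 7 (0.04 over all genes) and 0.05 on day 14 (0.03 over all genes). Tbxas1, which encodes thromboxane synthase, was at 0.19 to 0.55 FPKM in sham, 3.91 to 5.31 on day 7 and 1.71 to 4.03 on day 14. Neither day overlapped sham, while the 2 days overlapped each other. Its log2 differences were 2.04 (SE 0.169, adjusted p = 2.56e-05) and 1.38 (SE 0.156, adjusted p = 0.000287, limma), and both met the study's cut-offs. In the main fit Alox5ap and Slco2a1 on day 7 and Pla2g2d on day 14 met them as well. Tbxas1, Pla2g2d and Alox5 reached 1 FPKM only in day 7 and day 14 samples and entered the fit through them. Slco2a1 reached it in 2 sham samples and no day 1 sample, so it too needed the later days to enter. Pla2g1b entered through sham. The counts above are therefore no support. With no filter the adjusted p of Tbxas1 was 6.7e-05 on day 7 and 0.000761 on day 14, that of Alox5 on day 7 was 0.0114, that of Pla2g2d 0.0371 on day 7 and 0.00175 on day 14, and that of Pla2g1b on day 14 was 0.0187 (limma). In the same fit Slco2a1 had an adjusted p of 0.00121 on day 7 (limma). Neither Slco2a1 on day 7 nor Pla2g2d on day 14 met the study's cut-offs there. Alox5ap and Alox5 of the leukotriene branch rose by 1.29 (adjusted p = 0.000197) and 0.96 (adjusted p = 0.0079) on day 7; Alox5ap rose by 0.73 on day 14 (adjusted p = 0.0054), where Alox5 gave 0.34 (adjusted p = 0.282). Slco2a1, a prostaglandin transporter, rose by 1.07 on day 7 (adjusted p = 0.000627), where Ptgr1, which inactivates prostaglandins and leukotrienes, rose by 0.54 (adjusted p = 0.0067). Ptger2, another E receptor, rose by 0.73 (adjusted p = 0.0109), Ptgis, the prostacyclin synthase, by 0.47 (adjusted p = 0.0165) and Pla2g15, a lysosomal phospholipase, by 0.39 (adjusted p = 0.0013). Ptgr1 also rose on day 14, by 0.40 (adjusted p = 0.0271). Several of these calls rest on 1 sample: Ptger2 on day 7 sample 2 (0.0524 without it), Ptgis on day 7 samples 1 (0.0632) and 4 (0.0692), and Ptgr1 on day 14 on day 14 samples 1 (0.0646) and 3 (0.0562) and sham samples 2 (0.0704), 3 (0.0631) and 4 (0.0709). With quantile normalization the day 7 calls of Alox5 (0.0551), Ptger2 (0.0532), Ptgis (0.239) and Ptgr1 (0.0872) were lost.

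Pla2g2a lies between Pla2g2e and Pla2g5 on chromosome 5, with Pla2g2d next to the latter. Pla2g2e was listed at 0 to 0.12 FPKM in all samples. Pla2g2d, another secreted phospholipase, was at 0.16, 0.26, 0.43 and 0.39 FPKM in sham, 2.81, 1.62 and 3.31 on day 7, and 5.83, 23.36, 4.83 and 5.28 on day 14. It was highest on day 14, with sample 2 far above the others. Its log2 difference was 1.42 on day 7 (SE 0.391, adjusted p = 0.0231) and 2.76 on day 14 (SE 0.362, adjusted p = 0.000691, limma). The day 7 call was lost without day 7 sample 1 (0.0759) or 4 (0.0855) or sham sample 1 (0.0584) or 2 (0.0524). Pla2g5, between Pla2g2a and Pla2g2d, fell by 0.37 on day 14 (SE 0.086, adjusted p = 0.0125, limma), from 7.78 to 8.38 FPKM in sham to 4.93 to 6.86. Pla2g3 fell by 0.29 on day 7 (adjusted p = 0.0095) and by 0.26 on day 14 (adjusted p = 0.0148), and Pla2g1b fell by 0.39 on day 14 (adjusted p = 0.0246, limma; 0.0503 without day 14 sample 1). Whether the genes differ from one another in their change was not tested.

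**Figure D5:**
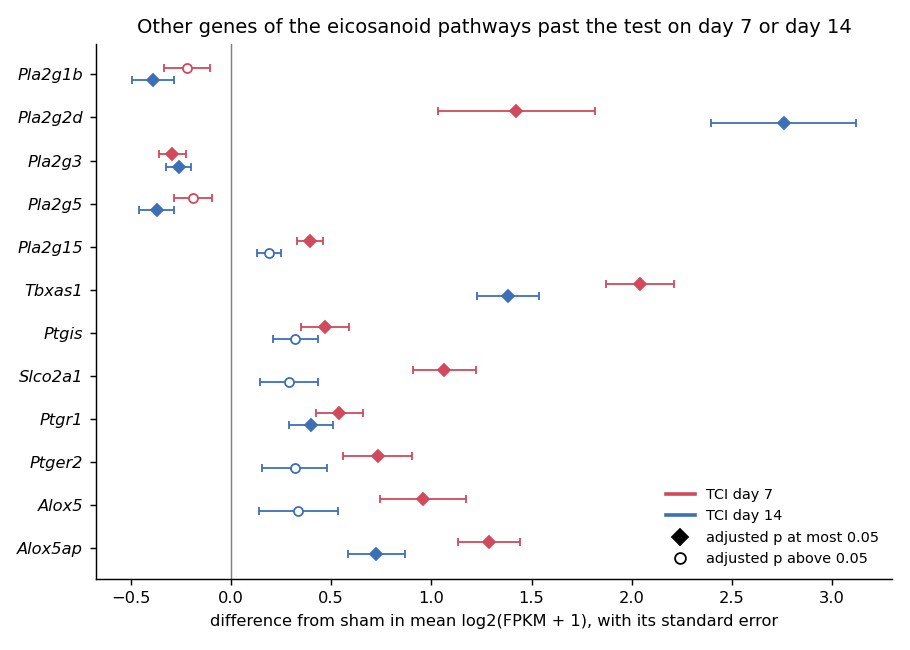
Difference from sham in mean log2(FPKM + 1), with its standard error, on days 7 and 14 for the 12 other pathway genes past the test on either day; filled diamonds mark an adjusted p of at most 0.05 and open circles one above it. Tbxas1 is further from sham on day 7 (2.04) than on day 14 (1.38), and Pla2g2d the other way round (1.42 and 2.76).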

How the data were processed

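RNA of lumbar DRGs was sequenced in 16 samples. The authors deposited 1 table of FPKM per sample, that is fragments normalized to transcript length and library size. Per the labels, libraries followed Illumina protocols with CASAVA 1.4 and Bowtie2, whereas the methods name BGISEQ-500, HISAT, Bowtie2 and RSEM. The build and annotation are not given in the sources used here. FPKM is not a count, so depth is unknown: low values, tried under several filters, gave no stable estimate of relative depth, and no counting error is given. FPKM sums were 436572 to 473959 per sample, and no pair of samples shared over 2.78% of values.

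Groups came from the labels. The 14023 genes that reached 1 FPKM in 3 or more of the 14 samples were fitted with limma 3.58.1 (R 4.3.3) on log2(FPKM + 1) with an intensity trend and 4 groups in 1 fit, and p-values were adjusted over all genes (Benjamini-Hochberg, at most 0.05). Comparisons with sham share its samples. Ptgs2 and Hpgds, under the filter, were compared by two-sided exact permutation tests. The members, lists, motifs and threshold were chosen with earlier results of these data known, and so was the rule for named genes: the members, other pathway genes past the threshold against sham, and the genes of most similar pattern (up to 3 shown per member; 1 is not reported here). The fit was tested on simulated normal values, with changes larger than those of the called members and only in genes above a minimum sham level. That test does not bear on the calls of the members. Gene order and start regions came from RefSeq (GRCr8), which held all 10 members by gene ID and start regions of 9.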

Additional observations from a re-analysis of the deposited data

Results flagged for a closer look

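Ptgs2 had 1 sham sample, at 0.07 FPKM, that lay apart from the other 3 (0.18 to 0.19 FPKM). It was the only such sample among 40 groups of 4 looked at, and chance marks about 1 group in 20.

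The change from sham differed between day 7 and day 1 for Pla2g4a, by 1.07 on the log2 scale, and for Ptges, by 0.60 (limma, adjusted p = 0.0038 and 0.0257). Pla2g4a entered the fit through its day 7 values, and its adjusted p with no filter was 0.00569.

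The 2 samples outside the fit held members above every sham sample. The day 7 sample held Pla2g2a at 1.92 FPKM (sham up to 0.15), Pla2g4a at 2.26 (up to 0.39), Ptgs1 at 9.87 (up to 2.51), Ptgs2 at 0.38 (up to 0.19), Ptges at 2.29 (up to 1.80) and Hpgds at 0.39 (up to 0.21). In the same sample skeletal muscle markers summed to 19625 FPKM. The day 1 sample held Pla2g4a at 0.46 FPKM and Ptgs1 at 2.52. Other members lay below every sham sample: Ptgir at 11.58 FPKM (sham from 16.94), Ptger3 at 1.86 (from 2.30) and Ptger4 at 3.15 (from 3.22) in the day 7 sample, and Ptgs2 at 0.02 (from 0.07) in the day 1 sample.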

How the results depend on the processing

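Pla2g4a, which the filter admitted through day 7, was also called on day 7 with no filter (adjusted p = 0.00224, limma). A minimum mean of 5 FPKM removed it, and in the main fit it missed the study's cut-offs. When 1 sample was left out its differences from sham were 1.03 to 1.14 with a lowest adjusted p of 0.000184 (limma). Against day 1 they were 1.00 to 1.16 with a lowest adjusted p of 0.000514 (limma). It therefore met those cut-offs in part of these fits. The members called on day 7 were 3 in the main analysis and 2 to 3 when 1 sample was left out. They were 0 with the study's cut-offs in the main fit. A mean of at least 5 FPKM takes Ptgs1, Ptges and Pla2g4a out before any test, as their highest group means were 3.99, 2.61 and 1.74 FPKM. For these genes the 0 that it gives here and in the counts below is no lost call. On day 14 the 1 call became 0 with all 16 samples (Ptgs1 adjusted p = 0.120), every gene above 0 kept (0.0533), the mean FPKM set to at least 5, quantile normalization (0.0535), only the 2 groups compared (0.0514) or the study's cut-offs, and 0 to 3 when 1 sample was left out. Day 7 against day 1 gave 2 calls, 0 with a mean of at least 5 FPKM or the study's cut-offs, 1 with quantile normalization and 1 to 3 when 1 sample was left out. Day 14 against day 1 gave 0 calls, 1 with all 16 samples and 0 to 1 when 1 sample was left out. Quantile normalization turned the split of all genes from 2028 higher and 484 lower to 1341 and 2320 on day 7, and from 1670 and 450 to 1101 and 1547 on day 14. It moved the median of all genes on day 7 from 0.04 to -0.07. The cause was not tested.

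Pla2g2a on day 14 against day 7 was -1.66 with all 16 samples and -3.00 with a pseudocount of 0.1. It was -1.98 to -1.83 in the 11 fits that left out 1 sham, day 1 or day 14 sample. Without any 1 day 7 sample Pla2g2a misses the filter, so this range does not cover the loss of a day 7 sample. Hpgds on day 7 gave a difference of 1.80 (exact p = 0.0571) with a pseudocount of 0.1, and 0.44 against day 1 (exact p = 0.0286) with all 16 samples. Ptgs2 reversed with all 16 samples on day 1 against sham (-0.029) and on day 14 against day 1 (0.014).

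Differences near 0 changed sign. Pla2g4a on day 1 was -0.014 with a pseudocount of 0.1, -0.019 with quantile normalization and -0.087 to 0.070 when 1 sample was left out. When 1 sample was left out, day 1 against sham ran from -0.0087 to 0.059 for Pla2g2a, -0.015 to 0.21 for Ptgs1, -0.14 to 0.013 for Ptges, -0.072 to 0.097 for Ptger4 and -0.0040 to 0.10 for Ptgir. Ptger4 on day 7 was -0.0061 with all 16 samples, -0.12 with quantile normalization and -0.040 to 0.17 when 1 sample was left out; against day 1 it was -0.11 with quantile normalization and -0.034 to 0.18. Ptgir on day 7 ran from -0.064 to 0.042. Alox5 on day 14 was -0.00086 with quantile normalization.

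Single genes also changed sides of the threshold (adjusted p, limma). With all 16 samples Ptger2 (0.105), Ptgr1 (0.0528) and Pla2g15 (0.0936) on day 7 and Ptgr1 (0.0877), Pla2g3 (0.122) and Pla2g5 (0.187) on day 14 were lost, and Ptgs1 on day 7 against day 1 was gained (0.0295). Quantile normalization lost Pla2g2d on day 7 (0.0576) and Ptgr1 on day 14 (0.166), and gained Pla2g5 (0.0135) and Pla2g1b (0.0069) on day 7. With only the 2 groups compared, Ptgr1 on day 14 was lost (0.0743) and Ptgds on day 7 against day 1 gained (0.0340). Leaving out 1 sample gained Pla2g4a on day 14 against day 1 (0.0191, without day 14 sample 3), Ptgis on day 14 (0.0422 and 0.0331, without day 14 sample 2 and sham sample 4) and Pla2g15 on day 14 (0.0387, without day 7 sample 1).

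With the replicate number as a block, the Ptger4 difference became 0.035 for day 1, -0.0087 for day 7 and -0.043 for day 7 against day 1, while Ptgir on day 7 was 0.0068. Under the block Ptgs1 on day 14 lost its call (adjusted p = 0.0627) and Ptges on day 14 gained one (0.0392). The numbers do not pair the samples, which are different animals. The 18 same-number pairs correlated at -0.095 to 0.269, with 4 over 0.1. The 55 other pairs correlated at -0.326 to 0.410, with 8 over 0.1.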

Other observations

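Sample 2 of day 14 held the highest Pla2g2a (0.79 FPKM), Pla2g4a (1.40 FPKM) and Pla2g2d (23.36 FPKM) of that group, and the highest macrophage (1828 FPKM) and T cell (103 FPKM) marker sums. Sample 3 held the lowest Pla2g4a (0.21 FPKM) and the lowest Ptgs1 (2.58 FPKM), Hpgds listed at 0, and the lowest fibroblast sum (327.7 FPKM). Alox5 departed from this, at 0.28 FPKM in sample 2 and 1.77 FPKM in sample 4. So did Ptgs1 (3.04 and 5.32 FPKM) and Ptgds (309 and 416 FPKM) in the same samples. Hpgds was at 0.36 FPKM in sample 2 and 0.85 in sample 1. Ptges and Ptger4 were highest in sample 2, whereas Ptgs2, Ptger3 and Ptgir were not. Sample 4 held the lowest Pla2g2a (0.31 FPKM) and macrophage sum (526 FPKM), and sample 2 the lowest neutrophil sum (0.37 FPKM). A link to cell content was not tested.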
